A study of Mus musculus with 2 samples.

Results

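Prg4-high connective tissue cells were examined in single-cell RNA sequencing data from amputated mouse digits. Prg4 encodes lubricin, a secreted glycoprotein that coats articular cartilage and the synovial surface and lets joint surfaces glide. In a joint it is made mainly by lining fibroblasts of the synovium and by superficial zone chondrocytes, and some tendon and sheath cells also make it. Lining fibroblasts are connective tissue cells that carry Pdgfra, a receptor for platelet-derived growth factors, and they secrete hyaluronan and lubricin into the joint cavity.

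The digits came from ICR mice, with male and female animals pooled. Digits 2 and 4 of the hindlimb were amputated through the middle phalanx (P2) at postnatal day 3, and a bead was placed at the wound at postnatal day 7. The bead carried FGF8 (500 ng/µl) in one group and 0.1% BSA in the control group, and cells were taken 24 h later, at postnatal day 8. Cells from 20 digits of 5 mice were pooled per condition after the epithelium had been removed and the tissue distal to the stump dissected, so each condition is 1 library. The amputation and the bead are shared by both groups. Digits were pooled without regard to whether they would later regenerate.

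A cell was counted as Prg4-high when it had at least 10 unique molecular identifiers (UMIs) of Prg4, at least 1 UMI of Pdgfra or 10 of Col1a1, and no more than 3 of the 6 cartilage genes Acan, Col9a1, Col9a2, Col9a3, Matn1 and Snorc. Only cells above 200 and below 7500 detected genes were used, with under 15% mitochondrial UMIs. The rule gave 702 cells among 9967 filtered cells of 10952 barcodes. Of these, 81 were in the BSA library, 2.49% of its 3252 filtered cells (exact binomial 95% interval 1.98 to 3.09%), and 621 were in the FGF8 library, 9.25% of 6715 (8.57 to 9.97%). The intervals in this section cover counting error only. Prg4 chose the cells, so these shares are a description. At the edge of the rule, 4 BSA and 14 FGF8 members had exactly 10 Prg4 UMIs, and 8 BSA and 11 FGF8 cells were left out only for having 9. They were compared with Pdgfra-positive cells of the same library that had 0 Prg4 UMIs, 1328 in BSA and 1457 in FGF8, called Prg4-0 cells here. Between the libraries 6 barcodes were shared, and none of them belonged to a Prg4-high cell.

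The connective tissue label was held against 10 markers, but Pdgfra and Col1a1 among them were also genes of the rule. All 10 connective tissue markers, among them Col1a2, Col3a1, Dpt and Twist2, were found in at least 10% of the Prg4-high cells of each library. Their summed level, in UMI counts per 1000000 UMIs (CPM), was 34929 in BSA and 12651 in FGF8 Prg4-high cells, against 45063 and 28339 in Prg4-0 cells. Col1a1 made up 12154 and 3650 CPM of this in Prg4-high cells, and 13148 and 6934 CPM in Prg4-0 cells. Dpt and Twist2, both dermal and connective tissue genes, were found at a lower level than in Prg4-0 cells and are described with the fibroblast genes. Markers of other cells were low in BSA members, with summed levels of 72.8 CPM for 8 macrophage genes, 24.5 CPM for 5 endothelial genes and 28.3 CPM for 5 keratinocyte genes, and with Sox10, Krt14, Epcam, Retnlg and Ly6g at 0. In FGF8 members the macrophage genes summed to 42.2 CPM and the endothelial genes to 13.5 CPM, but the keratinocyte genes reached 330 CPM and 5 erythroid genes 1615 CPM. Most of that lay in few cells: the 63 FGF8 cells with most Hba-a1, a globin, held 94.2% of its UMIs, and the same number held 98.7% of the UMIs of the keratin Krt1. Cells with clear markers of another type made up 3.70% of BSA and 3.54% of FGF8 members, and the gene counts, list medians and gene ratios below were repeated without them. Whether these are doublets was not tested.

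Both sets of members were deep. The median was 31198 UMIs and 5929 genes per cell in BSA and 33325 UMIs and 5962 genes in FGF8, against 20190 and 15376 UMIs in Prg4-0 cells. The upper limit on genes removed 20 BSA and 109 FGF8 barcodes that met all gene criteria, 19.8% and 14.9% of those that did. The pools differed in sex, which was called from Xist and Y-linked genes: 90.3% of the sexed BSA members were female, but 23.4% of the FGF8 members. The BSA members included 65 female-called and 7 male-called cells, and the FGF8 members 130 and 426. In female-called cells alone, 3.35% of BSA and 11.3% of FGF8 cells were Prg4-high. In male-called cells the shares were 1.38% and 12.1%.

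Prg4 lies on chromosome 1 of GRCm39, at 150325163 to 150342009 on the minus strand (ENSMUSG00000006014). BSA members held from 10 to 2134 Prg4 UMIs with a median of 32, and FGF8 members from 10 to 2857 with a median of 106. The summed level was 3338 CPM in BSA and 6730 CPM in FGF8. At least 100 Prg4 UMIs were found in 20 BSA members (24.7%) and in 319 FGF8 members (51.4%), and at least 500 in 3 (3.70%) and 81 (13.0%). High Prg4 counts were thus more frequent among FGF8 members, with at least 50 UMIs in 67.0% of them against 34.6% of BSA members. As the rule cut at 10 Prg4 UMIs, this only describes the chosen cells. Few cells carried most of the transcript: the 9 BSA cells with the most Prg4 held 61.2% of the members' UMIs, and the top 63 FGF8 cells held 44.4%.

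**Figure D1:**
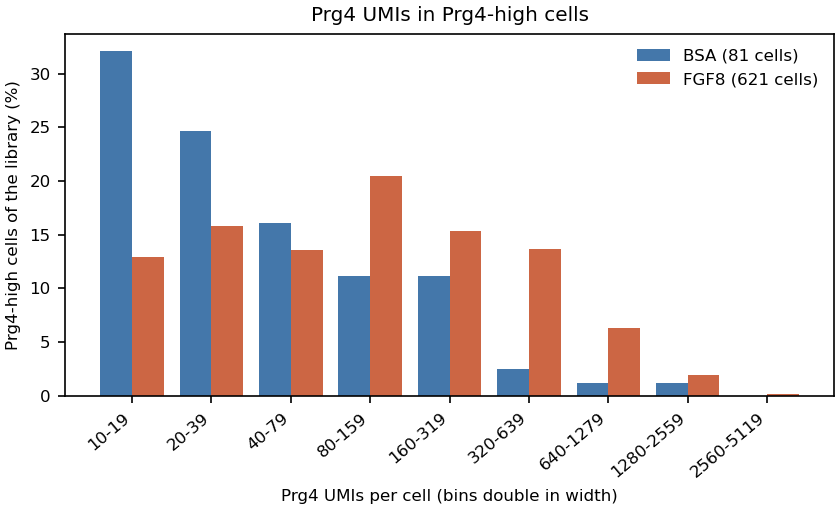
Share of Prg4-high cells (%, y axis) by Prg4 UMIs per cell (x axis, bins that double in width) in the BSA library (81 cells, blue) and the FGF8 library (621 cells, orange). The largest BSA bar is at 10 to 19 UMIs (32.1%) and the largest FGF8 bar at 80 to 159 UMIs (20.5%).

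Free Prg4 RNA differed between the libraries and sets a limit on lower counts. Leukocytes, taken as cells with at least 3 UMIs of Ptprc and none of Pdgfra, should lack Prg4. At least 1 Prg4 UMI was found in 1.79% of 391 BSA leukocytes (median 10090 UMIs per cell) and in 36.7% of 681 FGF8 leukocytes (median 7870). Among Pdgfra-positive cells the shares were 15.8% in BSA (median 21426 UMIs) and 53.9% in FGF8 (median 19121), so in the FGF8 library a cell with 1 or a few UMIs cannot be read as making Prg4. The Prg4-0 sets were thus picked unequally. They kept 1328 of 1577 Pdgfra-positive cells in BSA (median 20190 UMIs) and 1457 of 3158 in FGF8 (median 15376). What this does to the ratios that use Prg4-0 cells was not tested. At the limit of 10 UMIs the leukocyte count was 0 in both libraries, which at a floor of 3 cells allows a share of up to 0.767% in BSA and 0.441% in FGF8 (exact binomial upper limits 0.939% and 0.540%). Among erythroid cells 3 of 432 in FGF8 passed 10 UMIs and 0 of 69 in BSA. Filtered cells with at least 5000 UMIs, 2454 in BSA and 4971 in FGF8, were also thinned to 5000 UMIs. Of these, 0.978% in BSA and 6.70% in FGF8 met the rule. Cells with fewer UMIs were left out of all thinned shares.

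The Prg4-high and Prg4-0 cells of each library were set side by side to describe what else these cells carried. For each gene, UMIs were summed over the cells of a set and scaled to CPM, and the 2 sets were compared as a log2 ratio with an exact 95% interval for counting error. As each condition is 1 library, no replicate check exists and no p-value is given. A ratio above 1 or below -1, a factor of 2 either way, is called past the fold. In the BSA library 5.58% of 15138 genes were past the fold on the Prg4-high side and 15.5% on the Prg4-0 side, and in FGF8 3.5% and 23.9% of 16326. The median over all genes was -0.13 in BSA and -0.28 in FGF8, and ratios read relative to these are higher by that much. Ratios were below 0 for 9037 genes in BSA and 10700 in FGF8, against which counts of list genes below 0 are to be read. Of the genes past the fold, 26.5% in BSA and 12.8% in FGF8 were on the Prg4-high side, and 34.4% and 26.3% after centring on the median. These counts describe cells chosen by a gene of the same comparison and carry no test.

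Among genes named for the size and the same direction of their ratio in both libraries, Col22a1 had the highest ratio in FGF8 and, after Pla2g2e, the next highest in BSA. It encodes a collagen of tissue junctions that is also used as a marker of synovial lining. It stood at 54.7 CPM in BSA and 16.7 CPM in FGF8 members, against 3.30 and 0.438 CPM in Prg4-0 cells, with log2 ratios of 4.05 (3.67 to 4.45) and 5.26 (4.40 to 6.27). It was a gene of few cells, found in 16 BSA and 63 FGF8 members. Pla2g2e, a secreted phospholipase A2, was at 67.5 and 34.8 CPM in members and at 3.58 and 1.71 CPM in Prg4-0 cells. Gchfr, which regulates the enzyme that starts tetrahydrobiopterin synthesis, was at 68.7 and 55.1 CPM against 7.06 and 5.53 CPM. Cda, a cytidine deaminase, was at 48.7 and 92.3 CPM against 7.63 and 8.79 CPM. These 3 genes were found in 30.6 to 65.4% of the members of either library, so they reached beyond a few cells, although 9 BSA and 63 FGF8 cells held 72.1% and 71.2% of the Pla2g2e UMIs.

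A second set of leading genes encodes secreted factors and regulators. Hbegf, an EGF receptor ligand known from synovial lining, was at 159 CPM in BSA and 283 CPM in FGF8 members, against 22.1 and 45.8 CPM in Prg4-0 cells. The ratios were 2.85 (2.66 to 3.03) and 2.63 (2.53 to 2.72). Inhba, the subunit of activin A, was at 142 and 334 CPM against 41.3 and 48.5 CPM, and Rgcc, a cell cycle regulator induced by complement, at 728 and 423 CPM against 69.9 and 93.9 CPM. Anxa8, an annexin, was at 477 and 269 CPM against 66.6 and 64.8 CPM. For the members, then, a growth factor of the EGF family and an activin subunit stood several times above the level in the Prg4-0 cells of both libraries. In the 7 male-called BSA members the Hbegf ratio was -0.14.

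Timp1, an inhibitor of matrix metalloproteinases encoded on the X chromosome, was abundant. It reached 1042 CPM in BSA and 4494 CPM in FGF8 members, against 346 and 925 CPM in Prg4-0 cells, ratios of 1.59 (1.53 to 1.65) and 2.28 (2.26 to 2.30). With cells of at least 5000 UMIs thinned to 5000, Timp1 was found in 78.8% of BSA and 98.0% of FGF8 members, against 47.1% and 66.5% of Prg4-0 cells. This left out 106 BSA and 188 FGF8 Prg4-0 cells, and 1 and 6 members. Erythroid cells, used here to look at free RNA, had Timp1 at 227 CPM in BSA and 346 CPM in FGF8. Only 5.797% of the 69 BSA erythroid cells had a Timp1 UMI, against 46.99% of the 432 in FGF8. The BSA level thus lay in few cells and cannot be read as a level of free RNA. In leukocytes Timp1 was at 23.03 CPM in BSA and 175.1 CPM in FGF8. Mmp3 (stromelysin), a protease that Timp1 can block, was at 112 and 1337 CPM in members and at 21.0 and 284 CPM in Prg4-0 cells. In BSA it was confined to a few members, the 9 highest cells holding 95.3% of its UMIs, and its ratio there of 2.42 became 0.28 among cells with at least 20000 UMIs. Of the measured proteases 13 of 21 in BSA and 16 of 22 in FGF8 were lower in the members than in Prg4-0 cells. That is near the share over all genes, 9037 of 15138 and 10700 of 16326. Mmp16, a membrane-bound metalloproteinase, was at 35.1 and 14.7 CPM against 213 and 136 CPM, and of the measured proteases 1 of 21 in BSA and 3 of 22 in FGF8 were past the fold on the Prg4-high side, against 10 and 11 on the other side.

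**Figure D2:**
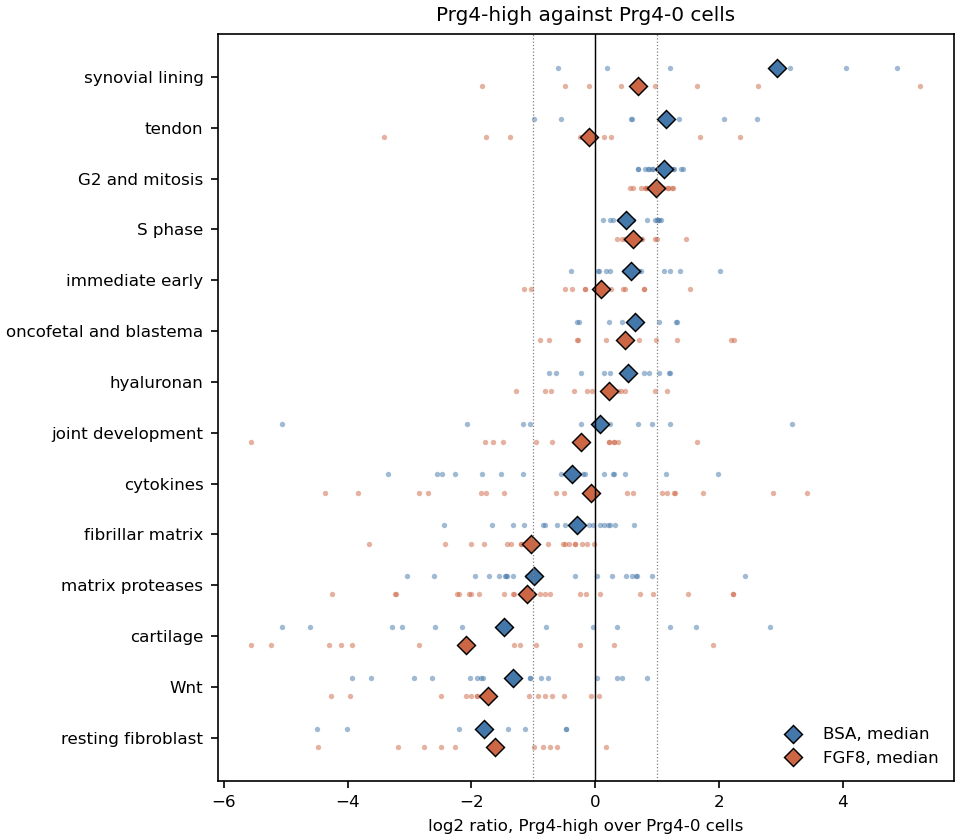
log2 ratio of Prg4-high over Prg4-0 cells (x axis) for the genes of 14 lists (small points) with the list medians (diamonds) in the BSA (blue) and FGF8 (orange) libraries; dotted lines mark -1 and 1. The resting fibroblast and Wnt medians lie below -1 in both libraries, the synovial lining median lies at 2.94 in BSA and at 0.69 in FGF8, and the G2 and mitosis medians lie at 1.11 and 0.99.

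The list of synovial lining genes held 8 members. In BSA 6 of 8 were past the fold on the Prg4-high side and the list median was 2.94, whereas in FGF8 3 of 8 were past it on that side and 1 on the other, with a median of 0.69. Col22a1 and Hbegf were past the fold in both libraries. Clic5, a chloride channel protein of the lining, was at 47.9 CPM in BSA members but 5.19 CPM in FGF8 members, against 5.37 and 7.28 CPM in Prg4-0 cells. Htra4, a secreted serine protease, was at 15.8 and 1.49 CPM against 0.537 and 0.477 CPM, and Tspan15, a tetraspanin, at 21.1 and 5.82 CPM against 2.58 and 2.98 CPM. Clic5 was found in 8 of 81 BSA members and Htra4 in 5, so the BSA median rests on few cells. Cd55, a complement regulator often used to sort lining cells, was below the Prg4-0 level in both, at 72.1 against 109 CPM in BSA and at 20.05 against 70.9 CPM in FGF8. Has1, a hyaluronan synthase, was at 56.6 and 83.9 CPM against 24.5 and 62.9 CPM, and Creb5, a transcription factor needed for Prg4 in articular cartilage, hardly differed at 166 and 105 CPM against 146 and 113 CPM. The list median in the 7 male-called BSA members was -0.32.

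Genes of joint development did not move as a group. The median over the 12 genes was 0.08 in BSA and -0.23 in FGF8, with 2 and 1 past the fold on the Prg4-high side and 4 and 4 on the other. Gdf5, the classic marker of the joint interzone, was at a low level, at 6.79 CPM in BSA and 1.35 CPM in FGF8 members against 0.752 and 1.15 CPM in Prg4-0 cells, and found in 11 and 20 members. Its ratio was 3.17 (2.18 to 4.15) in BSA and 0.22 (-0.58 to 1.02) in FGF8. Erg, another interzone gene, was at 34.7 and 9.33 CPM, against 40.5 and 26.3 CPM in Prg4-0 cells. Osr1 and Osr2, transcription factors of synovial joint formation, were at 46.0 and 29.1 CPM in BSA and 43.1 and 22.7 CPM in FGF8 members, and each was lower than in the Prg4-0 cells of its library. Bmp2, a bone morphogenetic protein, was the gene past the fold on the Prg4-high side in FGF8, at 80.2 against 25.6 CPM, and in BSA it was at 32.4 against 17.1 CPM.

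Tendon and cartilage transcription factors were found side by side with Prg4. Scx (scleraxis), which marks tendon progenitors, was at 184 CPM in BSA and 91.6 CPM in FGF8 members, against 30.1 and 18.0 CPM in Prg4-0 cells, with ratios of 2.61 (2.44 to 2.77) and 2.35 (2.20 to 2.50). It was detected in 82.7% of BSA and 64.9% of FGF8 members, and in 47.5% and 27.0% after thinning to 5000 UMIs, against 7.86% and 5.83% of thinned Prg4-0 cells. Sox5, which acts with Sox9 in chondrocytes, was at 173 and 145 CPM against 24.5 and 38.6 CPM. Sox9 itself was at 96.6 and 59.5 CPM against 41.7 and 48.1 CPM, and Sox6 at 64.9 and 13.6 CPM against 20.9 and 16.1 CPM. The differentiated product of cartilage, Col2a1, went the other way, at 14.7 and 11.6 CPM in members against 489 and 548 CPM, but the rule capped cartilage genes in the members and not in the Prg4-0 cells. When the same cap was put on the Prg4-0 cells, the median of the 12 cartilage genes in BSA went from -1.47 to 1.06. Tnmd, a marker of mature tendon, was at 61.9 and 33.1 CPM against 123 and 85.6 CPM, and 98.8% of its UMIs in BSA members lay in 9 cells.

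By summed level, osteoblast genes were mostly below the Prg4-0 level. Cells with at least 3 UMIs of osteoblast markers such as Ibsp and Bglap were few in every set. They numbered 4 of 81 members and 20 of 1328 Prg4-0 cells in BSA, and 14 of 621 and 22 of 1457 in FGF8. By share of cells, members were thus not below Prg4-0 cells. Ibsp (bone sialoprotein) was at 5.66 and 3.61 CPM in members against 85.3 and 35.9 CPM, and Bglap (osteocalcin) at 16.2 and 11.8 CPM against 111 and 22.3 CPM. Runx2, the osteoblast transcription factor, was at 140 and 101 CPM against 70.9 and 107 CPM. Spp1 (osteopontin), a secreted phosphoprotein of bone and of wounds, differed in direction between the libraries by summed level and is described with the FGF8 comparison.

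Genes used as markers of resting, dermal and adipogenic fibroblasts were among the lowest in the members. Chodl, a C-type lectin, was at 6.04 CPM in BSA and 1.01 CPM in FGF8 members, against 144 and 104 CPM in Prg4-0 cells. Lpl (lipoprotein lipase) was at 4.53 and 2.69 CPM against 150 and 149 CPM, ratios of -5.05 (-6.00 to -4.24) and -5.79 (-6.19 to -5.41). Lepr, the leptin receptor, was at 1.13 and 0.817 CPM against 46.3 and 39.0 CPM, and Apod, a lipid carrier, at 19.2 and 4.28 CPM against 245 and 194 CPM. All 10 genes of the resting fibroblast list were below 0 in BSA and 9 of 10 in FGF8, with medians of -1.80 and -1.63 and 8 and 5 past the fold. Dpt was at 78.5 and 49.5 CPM against 360 and 280 CPM, Twist2 at 21.5 and 31.4 CPM against 180 and 156 CPM, Pi16 at 2.26 and 5.43 CPM against 36.6 and 37.2 CPM, and Cd34 at 50.2 and 66.9 CPM against 179 and 132 CPM. These markers of the resting fibroblast were thus low in the Prg4-high cells of both libraries. Cxcl12, a stromal chemokine, was at 70.9 and 51.7 CPM against 340 and 338 CPM, and Il33, an alarmin, at 4.90 and 4.52 CPM against 50.3 and 64.7 CPM.

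Wnt pathway genes and FGF receptors were also mostly lower in the members. Of 17 Wnt pathway genes 13 in BSA and 16 in FGF8 were below 0, and 11 in each were past the fold, with medians of -1.34 and -1.72. The ligand Wnt5a was at 77.3 and 121 CPM in members against 271 and 254 CPM. The inhibitor Dkk2 was at 73.2 and 50.1 CPM against 264 and 189 CPM, and the Wnt enhancer Rspo3 at 7.92 and 23.1 CPM against 97.7 and 86.7 CPM. Grem1, a BMP antagonist, was at 2.64 and 6.06 CPM against 40.9 and 29.8 CPM. Of the FGF receptors, Fgfr1 was at 161 and 168 CPM against 213 and 240 CPM, and Fgfr2 at 99.6 and 65.0 CPM against 139 and 126 CPM. Of the 5 receptor genes, 2 in BSA and 1 in FGF8 were past the fold on the Prg4-0 side. Over all genes that share was 15.5% and 23.9%. None was past it on the Prg4-high side, where the share over all genes was 5.58% and 3.5%, so 5 genes say little.

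Structural collagens were lower chiefly in FGF8 members. Of 19 fibrillar matrix genes 13 were below 0 in BSA and all 19 in FGF8, with medians of -0.29 and -1.04 and 4 and 10 past the fold. Col3a1 was at 7769 CPM in BSA and 3301 CPM in FGF8 members against 13626 and 8890 CPM, and Eln (elastin) at 390 and 255 CPM against 2116 and 1368 CPM. Col1a2 was at 10448 CPM in BSA members and 12134 CPM in BSA Prg4-0 cells, but at 3340 and 7643 CPM in FGF8. Comp and Fmod, matrix genes of tendon and cartilage, were at 688 and 384 CPM in BSA members against 270 and 91.1 CPM, and at 186 and 50.4 CPM in FGF8 members against 170 and 42.1 CPM.

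Proliferation genes were higher in the members. All 16 S phase genes and all 18 genes of G2 and mitosis had ratios above 0 in both libraries, with medians of 0.51 and 1.11 in BSA and 0.61 and 0.99 in FGF8. Of the mitosis genes 11 in BSA and 8 in FGF8 were past the fold. Cenpa, a centromere histone, was at 106 and 291 CPM in members against 44.4 and 122 CPM, and Ube2c, which acts with the anaphase-promoting complex, at 179 and 396 CPM against 74.2 and 175 CPM. In BSA this depended on the cell filter: with a stricter one of 500 to 6000 genes and under 10% mitochondrial UMIs, which left 45 members, the mitosis median was -0.06, and in the 7 male-called members -0.29. The FGF8 median was 1.32 under that filter. Among cells with at least 20000 UMIs in both sets, the mitosis median was 0.76 in BSA and 0.45 in FGF8, and the S phase median 0.27 and 0.15. Hmga2, a chromatin protein of embryonic and growing mesenchyme, was at 63.4 and 554 CPM against 25.4 and 117 CPM, with ratios of 1.32 (1.07 to 1.57) and 2.25 (2.19 to 2.30), and its relative Hmga1 was at 9.43 and 67.4 CPM against 3.80 and 14.8 CPM.

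The cells also varied with the amount of Prg4 they held. Cells were divided into those with 10 to 49 Prg4 UMIs (53 BSA and 205 FGF8 cells) and those with 50 or more (28 and 416), and Pdgfra-positive cells with 1 to 9 (170 and 1173) were added for comparison. Depth moved with this division: the median was 27476 and 27472 UMIs per cell at 10 to 49, and 40970 and 35842.5 at 50 or more, and its part in the differences was not tested. In BSA the levels of several genes differed between the 2 groups, which was not tested. Scx was at 217 CPM at 10 to 49 Prg4 UMIs and at 138 CPM above, Fmod at 499 and 227 CPM, Kera (keratocan) at 92.2 and 15.2 CPM, and Tnmd at 107 CPM and 0. Scx and Fmod were thus highest in BSA cells with moderate Prg4. Kera hardly differed between 1 to 9 (89.7 CPM) and 10 to 49 Prg4 UMIs, and Tnmd was at 123 CPM in Prg4-0 cells. Clic5 was at 5.23 CPM at 10 to 49 and at 106 CPM above, Col22a1 at 10.5 and 115 CPM, Htra4 at 0.654 and 36.6 CPM, and Rgcc at 421 and 1147 CPM. These genes were therefore found mainly in the 28 BSA cells with the most Prg4, Clic5 and Htra4 in few of them. Of the other lining genes, Cd55 was lower there (64.2 against 77.8 CPM) and Creb5 was at 210 against 135 CPM. The same 28 cells had the higher mitosis genes, with Ube2c at 325 CPM against 72.6 CPM at 10 to 49.

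In FGF8 the division by Prg4 looked different. Clic5 was at 2.09 CPM at 10 to 49 and 6.37 CPM above, and Col22a1 at 3.31 and 21.8 CPM. Inhba was at 122 and 415 CPM, Mmp3 at 660 and 1594 CPM, Il11 at 64.9 and 138 CPM, Timp1 at 2575 and 5225 CPM, and Hmga2 at 364 and 626 CPM. These 5 genes were thus higher in FGF8 cells with the most Prg4. Chemokine genes were mixed. Cxcl5 (313 and 204 CPM) and Ccl2 (358 and 256 CPM) were lower, but Cxcl1 (702 and 776 CPM) and Cxcl2 (200 and 299 CPM) were higher. The 19 cytokine genes summed to 2935 and 2548 CPM. Col14a1, a fibril-associated collagen of fibroblasts, was at 467 CPM in Prg4-0 cells, 375 CPM at 1 to 9, 50.6 CPM at 10 to 49 and 31.7 CPM above. Cxcl12 was at 338, 300, 95.6 and 35.0 CPM over the same 4 groups in FGF8, and at 340, 163, 96.1 and 36.6 CPM in BSA. The FGF8 cells with 1 to 9 Prg4 UMIs were thus close to Prg4-0 cells in these genes.

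**Figure D3:**
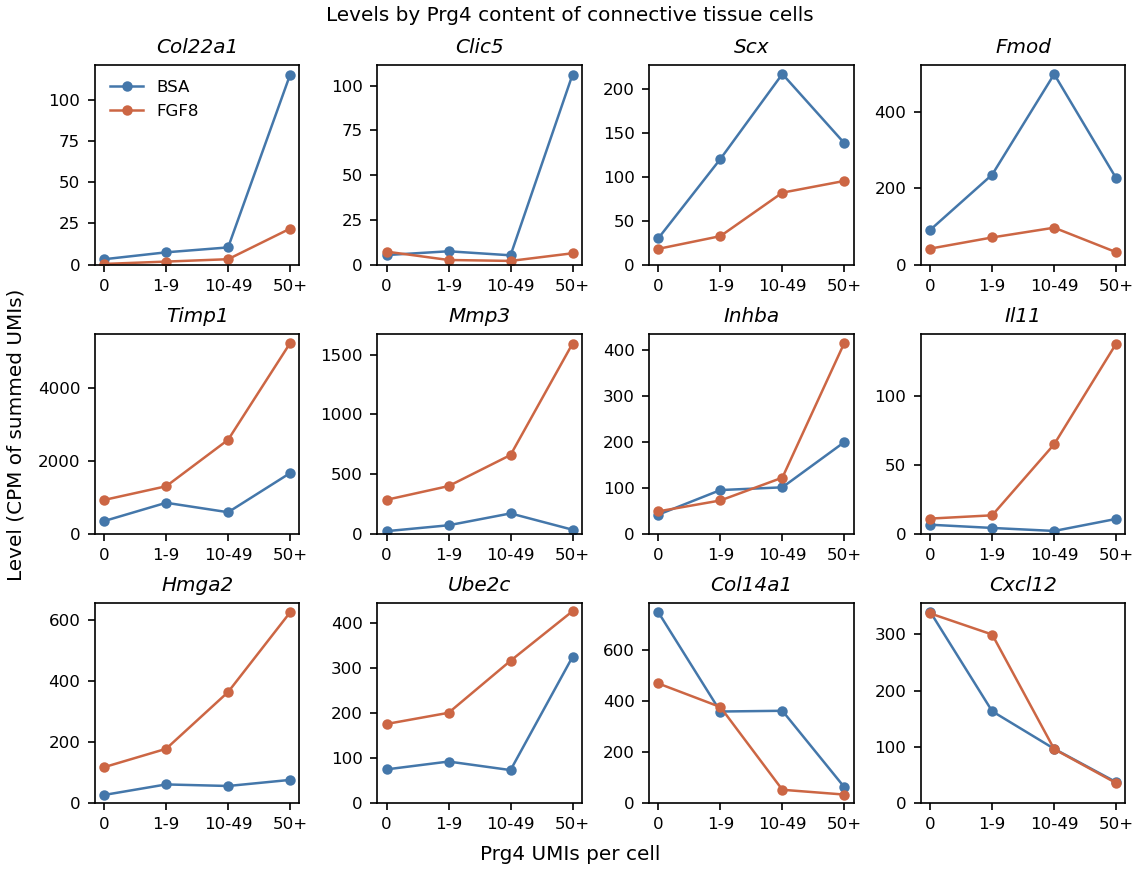
Level (CPM of summed UMIs, y axis) of 12 genes in connective tissue cells with 0, 1 to 9, 10 to 49 and 50 or more Prg4 UMIs (x axis) in the BSA (blue) and FGF8 (orange) libraries. Col22a1 and Clic5 stand out in BSA cells with 50 or more (115 and 106 CPM), Scx and Fmod peak in BSA cells with 10 to 49 (217 and 499 CPM), and Cxcl12 declines over the 4 groups in both libraries.

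Some FGF8 members carried several of these genes at once. Whether the genes met more often than their single shares would give was not tested. At least 3 UMIs of Hmga2 were found in 72.9% of FGF8 members, of Spp1 in 72.3%, of the receptor gene Il1rl1 in 59.7% and of Mmp3 in 54.1%. In Prg4-0 cells of the FGF8 library the shares were 12.4%, 21.7%, 10.4% and 12.3%, but at a median of 15376 UMIs per cell against 33325 in the members. Hmga2 and Spp1 were found together in 58.5% of FGF8 members, and Mmp3 and Spp1 in 45.2%. In BSA members Hmga2 reached 3 UMIs in 33.3%, Spp1 in 24.7%, Mmp3 in 12.3% and Il1rl1 in 9.88%. The shares in BSA Prg4-0 cells were 5.57%, 3.69%, 2.64% and 2.94%, also at a lower depth. After thinning to 5000 UMIs, at least 1 UMI of Hmga2 was found in 68.8% of FGF8 members, against 15.3% of FGF8 Prg4-0 cells, and of Il1rl1 in 51.4% and 13.0%. In thinned BSA members Il1rl1 was found in 3.75%. Free RNA gave at least 3 UMIs of Hmga2 in 1.39% of FGF8 erythroid cells, of Mmp3 in 1.16%, of Il1rl1 in 0.463% and of Spp1 in 8.10%, at a median of 9287 UMIs per cell.

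The second comparison set FGF8 over BSA within the Prg4-high cells, to describe how cells chosen by the same rule differed between the conditions. Over 13738 genes 6.62% were past the fold on the FGF8 side and 10.5% on the BSA side, and the median was -0.07. In Prg4-0 cells the shares were 6.06% and 1.95% of 17056 genes, with a median of 0.00. Treatment, pool of animals, sex of the pool, dissection and library cannot be told apart in either comparison. FGF8 members also held more Prg4 per cell, so values are also given for cells with 10 to 49 Prg4 UMIs and for female-called cells.

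Spp1 had the highest ratio of the list genes in members. It was at 75.8 CPM in BSA and 3413 CPM in FGF8 members, a log2 ratio of 5.49 (5.29 to 5.70), and at 576 and 1647 CPM in Prg4-0 cells, a ratio of 1.52 (1.49 to 1.54). The ratio in members was 4.96 at 10 to 49 Prg4 UMIs and 5.45 in female-called cells. Free Spp1 RNA differed too: 2.90% of BSA and 56.5% of FGF8 erythroid cells had a Spp1 UMI. The FGF8 erythroid cells held it at 691 CPM, with at least 3 UMIs in 8.10% of them. The 63 FGF8 members with most Spp1 held 64.9% of its UMIs, and the median member had 15 UMIs against 0 in BSA.

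Cytokine genes were mostly on the FGF8 side. Of 19 measured genes 15 were above 0 in members and 12 past the fold, with a median of 1.38. In Prg4-0 cells 15 of 18 were above 0 and 9 past the fold, with a median of 1.18. Il11, an interleukin of the IL-6 family, was at 5.66 CPM in BSA and 118 CPM in FGF8 members, a ratio of 4.38 (3.65 to 5.22), and at 6.48 and 10.9 CPM in Prg4-0 cells. It was found in 34.8% of FGF8 members, and the top 63 cells held 88.9% of it. Il1rl1, which encodes the IL-33 receptor ST2, was at 24.9 and 355 CPM in members, a ratio of 3.83 (3.48 to 4.20), and at 20.2 and 105 CPM in Prg4-0 cells. Cxcl1, a neutrophil chemokine, was at 291 and 756 CPM, and Cxcl5, another one, at 17.0 and 234 CPM, though Prg4-0 cells held more Cxcl5 at 99.8 and 652 CPM. Ccl2, a monocyte chemokine, had ratios of 1.84 and 1.75 in members and Prg4-0 cells, but of 4.05 in members with 10 to 49 Prg4 UMIs and 1.46 in female-called ones. Csf1, the macrophage growth factor, was at 39.2 and 116 CPM in members and at 57.6 and 76.0 CPM in Prg4-0 cells.

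Matrix proteases as a group lay on neither side: 10 of 22 were above 0 and 12 below in members, 7 and 9 past the fold, with a median of -0.17, and the 8 protease inhibitors were split 4 and 4 with a median of -0.10. Mmp2, a gelatinase, was at 374 CPM in BSA and 138 CPM in FGF8 members, and Mmp14, which activates it, at 569 and 273 CPM. Single genes lay far on the FGF8 side. Timp1 had a ratio of 2.11 (2.05 to 2.16) in members and 1.42 (1.39 to 1.45) in Prg4-0 cells, while female-called members alone gave 2.11 and male-called ones 2.07. Mmp3 had ratios of 3.58 (3.41 to 3.75) and 3.76 (3.64 to 3.89), so its higher level in FGF8 was shared with Prg4-0 cells. In members it was 1.96 at 10 to 49 Prg4 UMIs. Adam8, a membrane protease, was at 3.77 and 42.5 CPM in members and 2.01 and 9.11 CPM in Prg4-0 cells. Plaur, the urokinase receptor, was at 79.2 and 217 CPM in members and 49.5 and 76.7 CPM in Prg4-0 cells. Fst, which binds and blocks activins, was at 39.99 and 294 CPM in members, a ratio of 2.88 (2.599 to 3.17), and at 78.2 and 179 CPM in Prg4-0 cells. Its ligand subunit Inhba had a ratio of 1.23 (1.08 to 1.38) in members and 0.23 (0.11 to 0.35) in Prg4-0 cells, but 0.27 in members with 10 to 49 Prg4 UMIs.

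Hmga2 had a ratio of 3.13 (2.91 to 3.36) in members and 2.20 (2.09 to 2.32) in Prg4-0 cells, and of 3.31 in female-called members. Mitosis genes were higher in FGF8 in both sets of cells: all 18 were above 0, with a median of 1.05 and 10 past the fold in members, and of 1.17 and 16 past the fold in Prg4-0 cells. At 10 to 49 Prg4 UMIs the median in members was 1.91. The higher level of mitosis genes in FGF8 was thus found in Prg4-0 cells as well.

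Genes that FGF receptor signalling induces were examined because the bead carried FGF8. Of 13 feedback genes 6 were above 0 in members, 1 of them past the fold, and the median was -0.00, against 11 above 0 and a median of 0.24 in Prg4-0 cells. Etv4, an ETS factor downstream of FGF receptors, was the one past the fold, at 8.30 and 34.6 CPM in members and at 4.59 and 11.7 CPM in Prg4-0 cells. Its relative Etv5 was at 15.1 and 9.71 CPM in members, and the phosphatase gene Dusp6 at 18.5 and 25.3 CPM. Spry1, a feedback inhibitor, was at 18.1 and 13.2 CPM, and Spry4 at 6.04 and 7.36 CPM. All of these are low levels, so the intervals were wide, and that of Spry4 ran from -0.46 to 1.13.

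**Figure D4:**
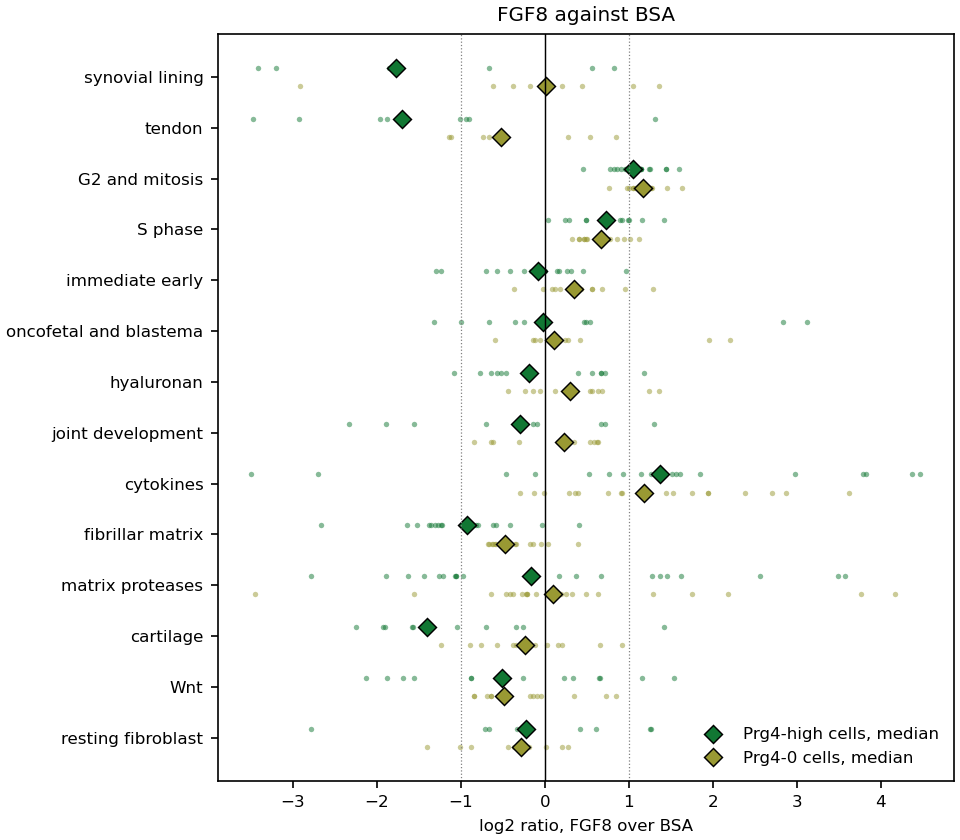
log2 ratio of FGF8 over BSA (x axis) for the genes of 14 lists (small points) with list medians (diamonds) in Prg4-high cells (dark green) and in Prg4-0 cells (olive); dotted lines mark -1 and 1. The medians of the synovial lining (-1.78 against 0.02), tendon (-1.70 against -0.52) and cartilage (-1.41 against -0.23) lists lie lower in Prg4-high cells, while the mitosis medians lie at 1.05 and 1.17.

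On the BSA side were the matrix genes of tendon, cartilage and fibroblasts. Tendon genes had a median of -1.70 in members, with 6 of 9 past the fold, against -0.52 and 2 of 9 in Prg4-0 cells. Fmod was at 384 CPM in BSA and 50.4 CPM in FGF8 members, a ratio of -2.93 (-3.05 to -2.80), and had a ratio of -1.12 in Prg4-0 cells. Comp was at 688 and 186 CPM, and Scx at 184 and 91.6 CPM. Thbs4, a thrombospondin of tendon and muscle, stood apart from its list at 300 CPM in BSA and 747 CPM in FGF8 members. Among cartilage regulators Sox6 had a ratio of -2.25 (-2.53 to -1.97) in members and -0.38 in Prg4-0 cells, and Erg of -1.90 (-2.26 to -1.52) and -0.62.

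Most genes of the synovial lining list were also lower in FGF8 members. Of the 8 genes 5 were past the fold on the BSA side, with a median of -1.78, against 1 of 8 and a median of 0.02 in Prg4-0 cells. The median in members was -1.69 in female-called cells and -0.29 in male-called cells. Clic5 had a ratio of -3.21 (-3.59 to -2.82) and Htra4 of -3.41 (-4.13 to -2.71), from the 8 and 5 BSA cells that carried them. At 10 to 49 Prg4 UMIs, a range almost without Clic5 in either library, its ratio was -1.32, and the list median was -1.32. Cd55, found in more cells but below the Prg4-0 level in the members of both libraries, had a ratio of -1.85 (-2.10 to -1.59) in members and -0.62 in Prg4-0 cells. Hbegf went the other way, with ratios of 0.83 (0.69 to 0.98) and 1.05 (0.91 to 1.19).

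Fibrillar matrix genes were also on the BSA side. Of 19 genes 18 were below 0 in members and 9 past the fold, with a median of -0.92, against 17 below 0, none past the fold and a median of -0.48 in Prg4-0 cells. Col14a1 was at 234 CPM in BSA and 36.9 CPM in FGF8 members, a ratio of -2.66 (-2.82 to -2.51), against -0.68 in Prg4-0 cells. Clec3b (tetranectin) was at 154 and 22.3 CPM, Fibin, a secreted fin bud initiation factor homologue, at 149 and 16.7 CPM, and Pamr1, a peptidase domain protein, at 48.7 and 5.10 CPM. Wif1, a secreted Wnt inhibitor, was at 57.0 and 9.33 CPM in members but at 151 and 142 CPM in Prg4-0 cells, with ratios of -2.61 (-2.93 to -2.29) and -0.09 (-0.16 to -0.03). Col1a2 had ratios of -1.65 and -0.67 in members and Prg4-0 cells, and of -1.50 in members with 10 to 49 Prg4 UMIs.

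**Figure D5:**
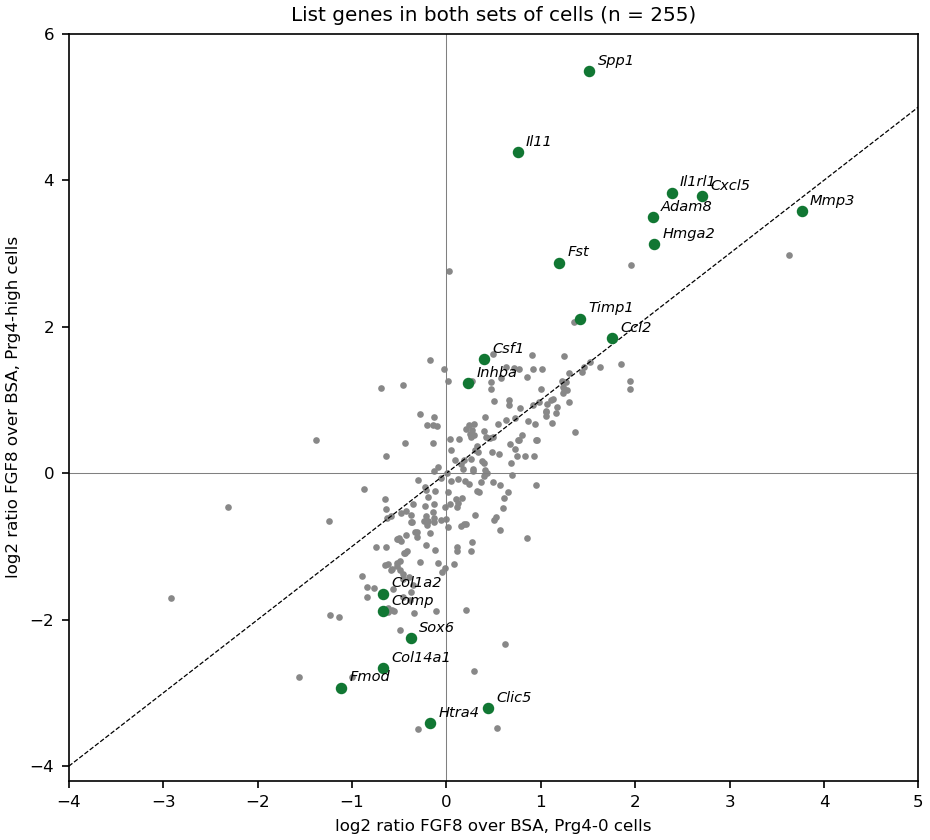
log2 ratio of FGF8 over BSA in Prg4-high cells (y axis) against the same ratio in Prg4-0 cells (x axis) for 255 genes of the lists, with the dashed line marking equal ratios. Spp1 (5.49 against 1.52) and Il11 (4.38 against 0.75) lie far above the line, Mmp3 (3.58 against 3.76) and Ccl2 (1.84 against 1.75) near it, and Clic5, Htra4 and Fmod far below it.

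Both sets of cells come from the same 2 libraries, so the ratios in Prg4-high and in Prg4-0 cells are given side by side and their difference was not tested. Some genes with very high FGF8 ratios were markers of skin and blood that came from few cells. Krt25, an inner root sheath keratin, was at 3.77 CPM in BSA and 168 CPM in FGF8 members, with up to 3365 UMIs in 1 cell. Krt1 was at 3.396 and 140 CPM and Calm4, a calmodulin-like gene of epidermis, at 0.755 and 59.9 CPM, with 98.0% or more of their FGF8 UMIs in 63 cells. Hba-a1 was at 25.3 and 562 CPM in members, and at 1830 and 4140 CPM in Prg4-0 cells.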

How the data were processed

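Cells of 2 libraries (FGF8 and BSA) were captured by the authors with 10x 3′ v3.1 chemistry and counted with Cell Ranger 9.0.0 on a GRCm39 transcriptome. The deposited values are raw UMI counts per gene and barcode for 33696 genes. The cell filters of the study (above 200 and below 7500 genes, under 15% mitochondrial UMIs) had not been used on the deposited counts and were used here. Positions of genes were taken from the GENCODE vM39 annotation of GRCm39.

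The BSA library held 67739460 UMIs and the FGF8 library 124889213. UMIs were summed per library and cell set, scaled to 1000000 (CPM) and compared as log2 ratios with exact conditional 95% intervals, and shares have exact binomial intervals (Clopper-Pearson). PCR copies are removed by UMIs, and intervals cover counting error only. Genes needed 20 UMIs over both sets. A set without a UMI was given 3 counts in all, which makes its ratio a bound. Where that bound lay on the wrong side of 0 the gene was left out (262 genes in the BSA comparison of Prg4-high with Prg4-0 cells, 43 in FGF8 over BSA of Prg4-high cells, 0 in the others), a choice made after seeing the data. The 9 genes of the rule were left out of counts and medians. Scripts used Python 3.11.15, numpy 2.4.6, scipy 1.17.1, pandas 2.3.3 and matplotlib 3.10.9, with a seed of 42 for thinning, and were tested on simulated data. No doublet caller was run, and doublets were not removed.

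The members, 22 lists (269 genes) and the rule for named genes were chosen with earlier results of these data known. Named genes are list genes, up to 5 of a list by level or ratio, and the 10 highest and 10 lowest ratios per comparison among genes with at least 200 UMIs in at least 10% of cells of the higher set and with the same sign in both libraries or in both sexes. Further list genes, and Krt25, Krt1, Calm4 and Hba-a1, were named after their values were seen. List results not given in the report are in the closing section. With 1 library per condition no test was possible. Alternatives were other Prg4 limits, filters, thinning, weights, minimums, centring, comparison cells, each sex, and cells with other markers left out.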

Additional observations from a re-analysis of the deposited data

Results flagged for a closer look

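For 2 genes the ratio of Prg4-high over Prg4-0 cells was past the fold in opposite directions in the libraries. Spp1 had a log2 ratio of -2.92 in BSA (75.8 against 576 CPM) and of 1.05 in FGF8 (3413 against 1647 CPM). The difference was not tested, as there is 1 library per condition. In female-called cells of FGF8 the Spp1 ratio was -0.26. The inner root sheath keratin Krt25 had a log2 ratio of -3.59 in BSA (3.77 against 45.5 CPM) and of 2.36 in FGF8 (168 against 32.7 CPM), which was not tested either. In FGF8 members 98.8% of the Krt25 UMIs lay in 63 cells, with 3365 in 1 cell, and in male-called FGF8 cells the ratio was -2.64.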

How the results depend on the processing

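No paired analysis was possible because each condition is 1 library. The BSA and FGF8 shares of Prg4-high cells were 3.60% and 10.9% at 5 Prg4 UMIs, 1.69% and 8.06% at 20 UMIs, 1.57% and 7.97% at 1000 CPM, 1.73% and 6.402% with the stricter filter (500 to 6000 genes, under 10% mitochondrial), 0.978% and 6.70% after thinning, and 3.29% and 13.0% without cells bearing other markers, and FGF8 was 10.1% without a filter. The FGF8 share was the higher one in each. In FGF8, Prg4-high over Prg4-0 cells, genes past the fold numbered 1087 above after centring, and 365 above and 2313 below in female-called cells. For FGF8 over BSA in members, 924 lay below at a minimum of 50 UMIs and 885 at 10 to 49 Prg4 UMIs. In Prg4-0 cells 758 lay below at 20000 UMIs per cell, 584 at a minimum of 10, 159 at 50 (661 above), 213 with the stricter filter and 657 in female-called cells. The other 77 counts stayed within a factor of 1.5.

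Signs turned in these cases, and the cause was not tested. For Prg4-high over Prg4-0 in BSA, the cartilage median was 1.06 with capped comparison cells. With the stricter filter the mitosis median was -0.059, Cenpa -0.10 and Ube2c -1.61. In the 7 male-called BSA members against male-called Prg4-0 cells, the medians were -0.32 (synovial lining), 0.55 (cartilage) and -0.29 (mitosis), and Hbegf was at -0.14, Mmp3 at -0.51, Cenpa at -1.21, Ube2c at -0.80, Has1 at -0.65 and Mkx at -0.26. In FGF8, Spp1 was -0.26 in female-called and Krt25 -2.64 in male-called cells. For FGF8 over BSA in members, Bmp2 was -0.47 at 10 to 49 Prg4 UMIs, and in male-called members Col22a1 was 0.20, Grem1 -0.084 and Lcn2 -1.82. In Prg4-0 cells Hba-a1 was -0.66 and Hbb-bs -0.44 at 20000 UMIs per cell, and Bglap was 3.44 in male-called cells. Values of genes with under 20 UMIs, of the 81 BSA members and above all of the 7 male-called ones are limited by depth.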

Other observations

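Lists not described above gave the following medians, for Prg4-high over Prg4-0 cells in BSA and in FGF8, and then for FGF8 over BSA in Prg4-high and in Prg4-0 cells. Immediate early genes were at 0.58, 0.09, -0.08 and 0.35. Junb, a subunit of the AP-1 factor, was at 705 CPM in BSA and 629 CPM in FGF8 members against 306 and 451 CPM in Prg4-0 cells, and Egr1, an immediate early zinc finger factor, at 134 and 54.2 CPM against 113 and 111 CPM. Hyaluronan genes were at 0.53, 0.23, -0.19 and 0.30. Ugdh, which makes the UDP-glucuronate used for hyaluronan, was at 127 and 202 CPM in members against 74.0 and 90.4 CPM. Oncofetal and blastema genes were at 0.65, 0.48, -0.02 and 0.11, and protease inhibitors at 0.02, -0.21, -0.10 and 0.04.

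Genes of BMP and TGF-beta signalling were at 0.27, -0.18, -0.52 and -0.06. Tgfbi, a matrix protein induced by TGF-beta, was at 399 and 259 CPM in members against 176 and 175 CPM. Contractile genes were at -0.75, -1.23, 0.05 and 0.28. Acta2 (smooth muscle actin) was at 202 and 134 CPM in members against 219 and 313 CPM. YAP targets were at -0.18, -0.44, -0.13 and 0.19, osteoblast genes at -1.96, -0.79, -0.46 and -0.25, FGF receptors at -0.48, -0.69, 0.07 and -0.09, and FGF feedback genes in Prg4-high over Prg4-0 cells at 0.08 in BSA and -0.01 in FGF8. Heat shock genes, which dissociation can induce, were at 0.19, 0.21, 0.40 and 0.67. Their part in the other differences was not tested.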
